A study of Mus musculus with 20 samples.

Results

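Genes for secreted host-defence proteins were followed across abdominal skin of mice that lacked Zfp36 in keratinocytes and of littermate controls, with and without imiquimod. The set held the beta-defensin genes Defb1, Defb3, Defb4, Defb6 and Defb14, the cathelicidin gene Camp, the lipocalin gene Lcn2, the protease inhibitor gene Slpi and the serum amyloid A genes Saa1 and Saa3. They were chosen by name, with earlier results of these data known. Shares over all genes are therefore given beside their counts for scale and are no independent test. Of these 10 genes, 9 were read by a probe set with a single gene symbol, 1 probe set each, out of 22180 genes read that way. Saa1 was paired only with a probe set that also carries the name Saa2, so no value is given for it.

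Beta-defensins are small cationic peptides held together by disulphide bonds, and epithelia secrete them against bacteria and fungi. Cathelicidin is a further cationic peptide, stored in neutrophil granules and made by keratinocytes. Lipocalin 2 captures the siderophores with which bacteria take up iron, Slpi inhibits neutrophil elastase and cathepsin G, and serum amyloid A proteins are acute-phase apolipoproteins, of which Saa3 is the form made mainly outside the liver. In psoriasis-like inflammation keratinocytes switch on several of these genes in response to IL-17, IL-22 and IL-36 cytokines.

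The knockout mice carried Zfp36 fl/fl with K14 cre, a recombinase driven by the keratin 14 promoter of basal keratinocytes. Their littermates carried Zfp36 fl/fl alone. Zfp36 encodes tristetraprolin, which binds AU-rich elements of messenger RNAs and speeds their decay. Skin was treated topically with imiquimod, a Toll-like receptor 7 agonist, on 5 consecutive days or was mock-treated, and was taken 4 hours after the last application. The groups were knockout with imiquimod, control with imiquimod, knockout with mock treatment and control with mock treatment, with 5 mice and 5 Affymetrix arrays each. The labels state no age, sex or strain, and do not describe the mock preparation. Floxed Zfp36 was carried by all 4 groups.

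Values are log2 probe set values that ran from 1.41 to 13.33, with array medians between 4.94 and 5.04, and no measure of background was used here. The number of arrays limits the precision. Zfp36 itself read 5.47, 7.41, 6.12, 7.18 and 5.82 in imiquimod-treated knockout skin, against 8.04, 8.4, 7.99, 7.89 and 7.68 in imiquimod-treated control skin. In mock-treated skin it read 5.12, 6.84, 7.12, 4.61 and 3.47 in knockouts, against 7.28, 7.45, 7.74, 7.22 and 7.61 in controls. Every knockout array lay below every control array of the same treatment, although the test across all genes did not call Zfp36 (limma adjusted p = 0.221 with imiquimod and 0.999 with mock). Cells other than keratinocytes keep the gene in this model. Keratinocyte markers were bright in all arrays, and the mean of 11 markers was 10.26 to 10.75 in treated knockouts, against 9.91 to 10.06 in mock-treated knockouts, and 10.51 to 10.74 in treated controls, against 9.79 to 10.31 in mock-treated controls. With imiquimod 5 of the 11 rose and 1 fell in each genotype. Over all genes 11.1% rose and 9.71% fell in knockouts, and 6.47% rose and 4.37% fell in controls. Flg, which encodes filaggrin, was 4.7-fold higher in knockouts and 6.68-fold higher in controls (limma adjusted p = 7.23e-06 and 8.77e-07). Krt15, the 1 that fell, was 4.76-fold lower in knockouts and 2.23-fold lower in controls (limma adjusted p = 1.36e-05 and 0.0131). Between treated genotypes none of the 11 was called, and their median log2 difference was -0.2. There Krt14 had an estimate of 0.53, Krt15 of -0.93 and Flg of -0.63 (limma adjusted p = 0.0554, 0.213 and 0.425). The part of these keratinocyte shifts in the results was not tested. Whole skin was assayed, so fewer cells of a type and less RNA per cell cannot be told apart.

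Imiquimod raised 8 of the 9 measured genes in knockout skin and 7 of 9 in control skin, and none fell in either. Over all genes, 11.1% rose in knockout skin and 6.47% in control skin in the same limma fit, in which a gene was called at a Benjamini-Hochberg adjusted p under 0.05. The median log2 difference of the 9 genes was 2.38 in knockouts and 1.54 in controls, against 0 over all 22180 genes in both comparisons. Camp was the exception in both genotypes, and Defb4 passed in knockouts and not in controls, with the difference of its responses tested further on. In each genotype, 7 of the 9 genes had imiquimod and mock arrays that did not overlap, against 7.16% of all genes rising without overlap in knockouts and 5.6% in controls (2.74% fell that way in controls). In either direction, limma called 20.8% of all genes in knockouts.

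**Figure D1:**
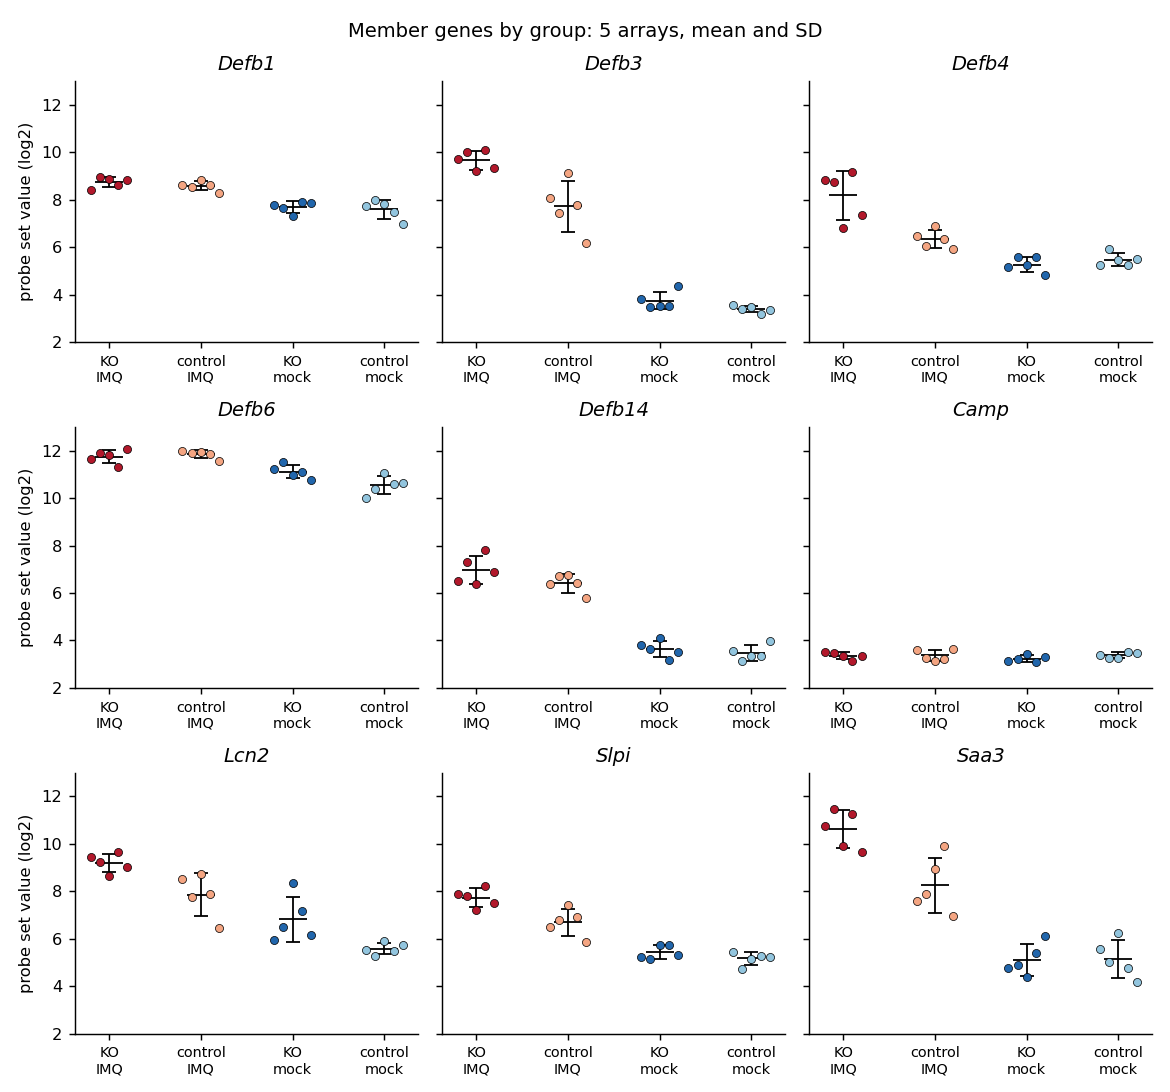
Log2 probe set values of the 9 measured genes in the 4 groups (KO, Zfp36 knockout; IMQ, imiquimod), with 1 point per array, the mean as a bar and the SD as whiskers (n = 5 arrays per group). Defb3, Defb14 and Saa3 are low in both mock groups and high in both imiquimod groups, Defb6 is bright everywhere, and all Camp arrays lie between 3.1 and 3.63.

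Defb3, an inducible beta-defensin, had the largest response of the set in both genotypes. It read 9.71, 10.02, 9.19, 10.08 and 9.34 in imiquimod-treated knockout skin, against 3.83, 3.49, 3.54, 3.54 and 4.36 in mock-treated knockout skin. In controls it read 8.06, 7.43, 9.12, 7.79 and 6.19 with imiquimod, against 3.56, 3.39, 3.48, 3.18 and 3.37 with mock. Every imiquimod array lay far above every mock array, and every imiquimod-treated knockout array lay above every imiquimod-treated control array, the nearest at 9.19 and 9.12. The log2 difference was 5.92 ± 0.34 in knockouts (SE, n = 5 per group, limma adjusted p = 3.02e-10) and 4.32 ± 0.34 in controls (SE, n = 5 per group, limma adjusted p = 3.3e-08). The 5 imiquimod-treated control arrays spanned almost 3 log2 units, while the knockout arrays stayed within 1 unit. Each SE, here and below, rests on 1 spread per gene shared by the 4 groups. It therefore does not show that the groups' own SDs differed, from 0.14 in mock-treated to 1.06 in imiquimod-treated controls for Defb3.

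Defb3 and Defb6 lie in the same defensin cluster on chromosome 8, in the order Defb14, Defb4, Defb6, Defb46, Defb5 and Defb3, with other loci between some of them. The bases before the annotated start of Defb3 and Defb6 are shown because these neighbouring genes are alike in this stretch and unlike in their values. Both come from RefSeq in build GRCm38.p6, 250 bases upstream of the start on the plus strand (chr8:19293111-19293360 for Defb3 and chr8:19225228-19225477 for Defb6). Capitals mark matches to the motifs searched. In a global alignment with free end gaps 191 of 225 aligned bases were identical (84.9%), with gaps and unaligned ends of the 250 bases not counted.
Defb3: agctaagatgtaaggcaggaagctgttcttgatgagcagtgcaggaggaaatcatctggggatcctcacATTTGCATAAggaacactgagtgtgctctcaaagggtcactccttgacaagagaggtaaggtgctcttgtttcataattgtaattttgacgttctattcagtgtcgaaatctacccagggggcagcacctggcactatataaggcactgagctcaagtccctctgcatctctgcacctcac
Defb6: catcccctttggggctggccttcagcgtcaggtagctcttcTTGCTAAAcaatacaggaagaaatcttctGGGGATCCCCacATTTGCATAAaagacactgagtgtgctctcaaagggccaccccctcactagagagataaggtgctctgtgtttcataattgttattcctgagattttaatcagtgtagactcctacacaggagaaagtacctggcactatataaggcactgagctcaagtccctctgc
The shared run of capitals joins the octamer ATTTGCAT and a C/EBP-type motif, TTGCNNAA, which overlap there. The octamer, written after parts of these sequences had been seen, was found in 1.6% of the 32851 promoter windows of the same length. As the pair is alike here, the shared match is not an independent one in each gene. Defb6 alone of the pair also matched the NF-kB decamer, 180 to 171 bases before its start and on both strands. That motif was found in 7.25% of all windows.

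Defb6, unlike Defb3, was already bright in mock skin, and its rise was smaller than that of Defb3 by estimate in both genotypes. Its mean over the 20 arrays was above that of 99.8% of all genes on the log2 scale, and a probe set's level also depends on its probes. In knockouts it read 11.66, 11.89, 11.83, 11.32 and 12.05 with imiquimod, against 11.22, 11.5, 10.95, 11.11 and 10.77 with mock. Control values were 11.98, 11.89, 11.95, 11.87 and 11.57 with imiquimod, against 10, 10.39, 11.05, 10.58 and 10.64 with mock. The groups overlapped in knockouts, where mock replicate 2 (11.5) lay above imiquimod replicate 4 (11.32), and did not overlap in controls. Defb6 rose 1.56-fold in knockouts (log2 difference 0.64 ± 0.17, SE, n = 5 per group, limma adjusted p = 0.00954) and 2.5-fold in controls (1.32 ± 0.17, SE, n = 5 per group, limma adjusted p = 1.78e-05). Of the 9 genes it was the 1 with a smaller estimate in knockouts among those called in both genotypes. That difference of responses, -0.68 (95% interval -1.18 to -0.18), did not pass over all genes (limma adjusted p = 0.617).

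Defb4, another inducible beta-defensin, rose in knockouts, and its smaller difference in controls did not pass. It read 8.81, 8.76, 6.81, 9.16 and 7.35 in imiquimod-treated knockout skin, against 5.16, 5.59, 5.23, 5.57 and 4.81 in mock-treated knockout skin. In controls it read 6.47, 6.05, 6.89, 6.35 and 5.93 with imiquimod, against 5.23, 5.94, 5.46, 5.26 and 5.51 with mock. The groups did not overlap in knockouts, and in controls imiquimod replicate 5 (5.93) lay just below mock replicate 2 (5.94). Defb4 rose 7.5-fold in knockouts (log2 difference 2.91 ± 0.34, SE, n = 5 per group, limma adjusted p = 3.36e-06). In controls its log2 difference was 0.86 ± 0.34 (SE, n = 5 per group, limma adjusted p = 0.115). That estimate passed with only the control groups in the fit (limma adjusted p = 0.0129) and without knockout imiquimod replicate 3 (0.0451), an array outside this comparison that enters only the shared spread.

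Defb14, a beta-defensin of epithelia that also attracts leukocytes in culture, rose by almost the same amount in both genotypes. It read 6.5, 7.32, 6.38, 7.79 and 6.89 in imiquimod-treated knockout skin, against 3.81, 3.63, 4.1, 3.18 and 3.5 in mock-treated knockout skin. Control values were 6.39, 6.73, 6.75, 6.4 and 5.77 with imiquimod, against 3.54, 3.14, 3.36, 3.33 and 3.98 with mock. Imiquimod and mock arrays were far apart in both genotypes, and the imiquimod groups overlapped each other. The rise was 10.1-fold in knockouts (limma adjusted p = 8.28e-09) and 7.66-fold in controls (limma adjusted p = 6.97e-08). The difference of the responses was 0.39 (95% interval -0.33 to 1.12, limma adjusted p = 0.892), which leaves room for a response up to about 1 log2 unit larger in knockouts.

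Defb1, the beta-defensin that epithelia make without a stimulus, rose about 1 log2 unit in both genotypes. It lay between 8.43 and 8.95 (median 8.81) with imiquimod and between 7.31 and 7.92 (median 7.77) with mock in knockouts. In controls it lay between 8.3 and 8.85 (median 8.61) with imiquimod and between 6.97 and 7.97 (median 7.72) with mock. No imiquimod array overlapped a mock array of its genotype. The rise was 2.05-fold in knockouts (limma adjusted p = 0.000104) and 2-fold in controls (limma adjusted p = 0.000269), and the difference of the responses was 0.04 (95% interval -0.44 to 0.51).

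The rest of the beta-defensin family moved little. Of 37 other genes with a Defb symbol, 0 were called in knockouts and 1 rose in controls, Defb10 (limma log2 difference 0.39, adjusted p = 0.044). The Defb10 call was lost in 14 of its 32 alternatives, 10 of them without 1 array. Log2 differences of these 37 genes ran from -0.21 to 0.32 in knockouts and from -0.28 to 0.39 in controls. Their means over the 20 arrays lay between 2.17 and 5.57, and whether such low values stand for transcript was not tested. At an unadjusted p under 0.05 limma gave 4 of the 37 in knockouts and 4 in controls, against 31.2% and 23.9% of all genes.

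**Figure D2:**
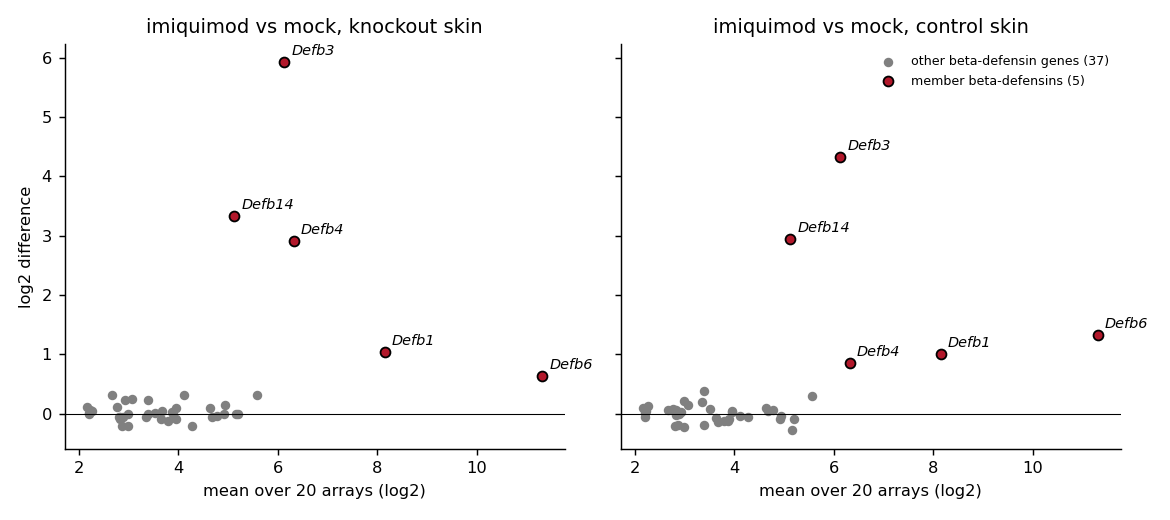
Log2 difference between imiquimod and mock (vertical) against the mean over the 20 arrays (horizontal, log2) for the 5 member beta-defensins and the 37 other Defb genes, 1 point per gene. Defb3, Defb14, Defb4, Defb1 and Defb6 lie above all other Defb genes in knockout skin (left) and control skin (right), and no other Defb gene exceeds 0.39.

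Camp, the cathelicidin gene, stayed near the low end of the scale. It read 3.5, 3.49, 3.35, 3.12 and 3.36 in imiquimod-treated knockout skin and 3.61, 3.28, 3.14, 3.2 and 3.63 in imiquimod-treated control skin. In mock-treated skin it read 3.12, 3.21, 3.43, 3.1 and 3.29 in knockouts and 3.38, 3.26, 3.24, 3.53 and 3.49 in controls. All groups overlapped, and only 13.3% of genes had a lower mean over the arrays. The interval of the imiquimod effect ran from -0.09 to 0.36 in knockouts and from -0.23 to 0.21 in controls, on the log2 scale of a probe set that may lie near background.

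Lcn2, the siderophore-binding lipocalin of neutrophils and stressed epithelium, rose with imiquimod in both genotypes. It read 9.46, 9.24, 8.65, 9.65 and 9.02 in imiquimod-treated knockout skin, against 5.96, 6.51, 8.33, 7.18 and 6.14 in mock-treated knockout skin. In controls it read 8.51, 7.74, 8.75, 7.87 and 6.44 with imiquimod, against 5.52, 5.27, 5.92, 5.49 and 5.74 with mock. Mock-treated knockouts overlapped imiquimod-treated controls, and they were the widest of the 4 groups (SD 0.96), with replicate 3 at the top. The rise was 5.21-fold in knockouts (log2 difference 2.38 ± 0.40, SE, n = 5 per group, limma adjusted p = 0.00022) and 4.84-fold in controls (2.27 ± 0.40, SE, n = 5 per group, limma adjusted p = 0.000608). The difference of the responses was 0.11 (95% interval -1.07 to 1.28).

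Slpi, the secretory leukocyte protease inhibitor, rose 4.91-fold in knockouts (limma adjusted p = 5.48e-07) and 2.9-fold in controls (limma adjusted p = 0.000111). It read 7.89, 7.82, 7.21, 8.23 and 7.51 in imiquimod-treated knockout skin, against 5.24, 5.15, 5.74, 5.72 and 5.33 in mock-treated knockout skin. In controls it read 6.5, 6.81, 7.43, 6.91 and 5.87 with imiquimod, against 5.46, 4.74, 5.14, 5.27 and 5.22 with mock. Imiquimod arrays lay above mock arrays in both genotypes, and among imiquimod arrays control replicate 3 (7.43) exceeded knockout replicate 3 (7.21).

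Saa3, the serum amyloid A gene of macrophages, fat and epithelium, had the second largest rise in knockouts. It read 10.77, 11.48, 9.89, 11.27 and 9.67 in imiquimod-treated knockout skin, against 4.75, 4.89, 4.39, 5.4 and 6.11 in mock-treated knockout skin. Control values were 7.6, 7.9, 8.95, 9.9 and 6.96 with imiquimod, against 5.56, 5.04, 6.24, 4.75 and 4.18 with mock. Imiquimod and mock arrays did not overlap in either genotype, and 1 treated control, replicate 4, reached the range of the treated knockouts. The rise was 45.5-fold in knockouts (log2 difference 5.51 ± 0.50, SE, n = 5 per group, limma adjusted p = 1.57e-07) and 8.62-fold in controls (3.11 ± 0.50, SE, n = 5 per group, limma adjusted p = 0.00025). Saa2, a neighbouring serum amyloid A gene that was not among the 10, rose 2.28-fold in knockouts (limma adjusted p = 0.000116), with a log2 difference of 0.01 in controls (limma adjusted p = 0.988). Outside treated knockouts its group means were 3.15 to 3.18, which may lie near background. Saa2 and Saa3 belong to 1 family of similar genes, so some signal could be read by both probe sets.

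Promoter windows of Lcn2, Slpi and Saa3 are shown because these genes rose together with the inducible defensins. Each gives 250 bases before the annotated start, read on the minus strand of GRCm38.p6 from RefSeq (chr2:32387740-32387989, chr2:164356508-164356757 and chr7:46715677-46715926). Capitals mark matches to the motif TTGCNNAA or its reverse complement.
Lcn2: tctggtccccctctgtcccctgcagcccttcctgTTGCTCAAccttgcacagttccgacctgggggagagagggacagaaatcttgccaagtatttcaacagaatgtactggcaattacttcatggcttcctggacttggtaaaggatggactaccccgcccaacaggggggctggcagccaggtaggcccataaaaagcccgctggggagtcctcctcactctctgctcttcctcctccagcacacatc
Slpi: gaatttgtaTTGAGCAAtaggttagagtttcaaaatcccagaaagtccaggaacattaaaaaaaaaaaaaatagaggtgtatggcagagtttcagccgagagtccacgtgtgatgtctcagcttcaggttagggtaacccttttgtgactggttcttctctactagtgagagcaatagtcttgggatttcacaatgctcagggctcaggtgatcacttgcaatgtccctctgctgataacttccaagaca
Saa3: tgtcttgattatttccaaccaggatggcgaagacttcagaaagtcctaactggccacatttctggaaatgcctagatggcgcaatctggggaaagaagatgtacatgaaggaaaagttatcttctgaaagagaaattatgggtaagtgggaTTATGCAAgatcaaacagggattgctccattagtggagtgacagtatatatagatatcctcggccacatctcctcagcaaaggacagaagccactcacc
The promoter table held 7 of the 10 genes, and the motif was found in the windows of Defb3, Defb6, Lcn2, Slpi, Saa1 and Saa3 and not in that of Camp. Over all 32851 windows 9.56% held it. No window of the 7 held the STAT-type motif TTCNNNGAA or the AP-1-type motif TGANTCA, which were found in 7.02% and 6.75% of all windows. The NF-kB decamer, found in 7.25% of all windows, was matched in Defb6 alone of the 7. The C/EBP-type motif and the octamer were written after parts of these sequences had been seen, all motifs were searched on both strands, and a match is a description of letters.

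Loss of Zfp36 was then compared within treated skin. With imiquimod, 4 of the 9 genes were higher in knockouts and none was lower, while 0.374% of all genes were higher in limma. The median log2 difference of the 9 was 1.03, against 0.01 over all genes. The 4 were Saa3, 5.11-fold higher (log2 difference 2.35 ± 0.50, SE, n = 5 per group, limma adjusted p = 0.0323), Defb3, 3.86-fold higher (1.95 ± 0.34, limma adjusted p = 0.0117), Defb4, 3.58-fold higher (1.84 ± 0.34, limma adjusted p = 0.0136), and Slpi, 2.04-fold higher (1.03 ± 0.23, limma adjusted p = 0.0453). Lcn2 had an estimate of 1.34 and Defb14 of 0.57, and neither passed (limma adjusted p = 0.176 and 0.419). Defb1, Defb6 and Camp had estimates of 0.15, -0.10 and -0.01, with 95% intervals of -0.18 to 0.49, -0.45 to 0.25 and -0.23 to 0.21. Of the 9, only Defb3 had treated groups that did not overlap, while 1.3% of all genes were higher and 1.17% lower in that way.

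The calls of Defb4, Saa3 and Slpi depended on single arrays, and those of Saa3 and Slpi also on the prior (limma adjusted p = 0.0637 and 0.0522 with a robust prior, at the same log2 differences). The Defb3 call held with each of the 20 arrays left out in turn (limma adjusted p up to 0.0467) and was lost only with the 2 treated groups alone in the fit (0.082). Defb4 lost its call without control imiquimod replicate 2 (limma adjusted p = 0.0518) and without knockout imiquimod replicate 2 (0.0576). Saa3 lost it without control imiquimod replicate 1, 2 or 5 (limma adjusted p = 0.102, 0.107 and 0.0926) and without knockout imiquimod replicate 1, 2 or 4 (0.0859, 0.113 and 0.106). Slpi kept its call in 6 of these 20 fits, those without control imiquimod replicate 3, control mock replicate 2 or 5, knockout imiquimod replicate 3 or 5, or knockout mock replicate 3, and its limma adjusted p reached 0.153 in the others. Over all 32 alternatives the log2 difference ran from 1.56 to 2.30 for Defb3, 1.58 to 2.18 for Defb4, 1.99 to 2.76 for Saa3 and 0.78 to 1.21 for Slpi.

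**Figure D3:**
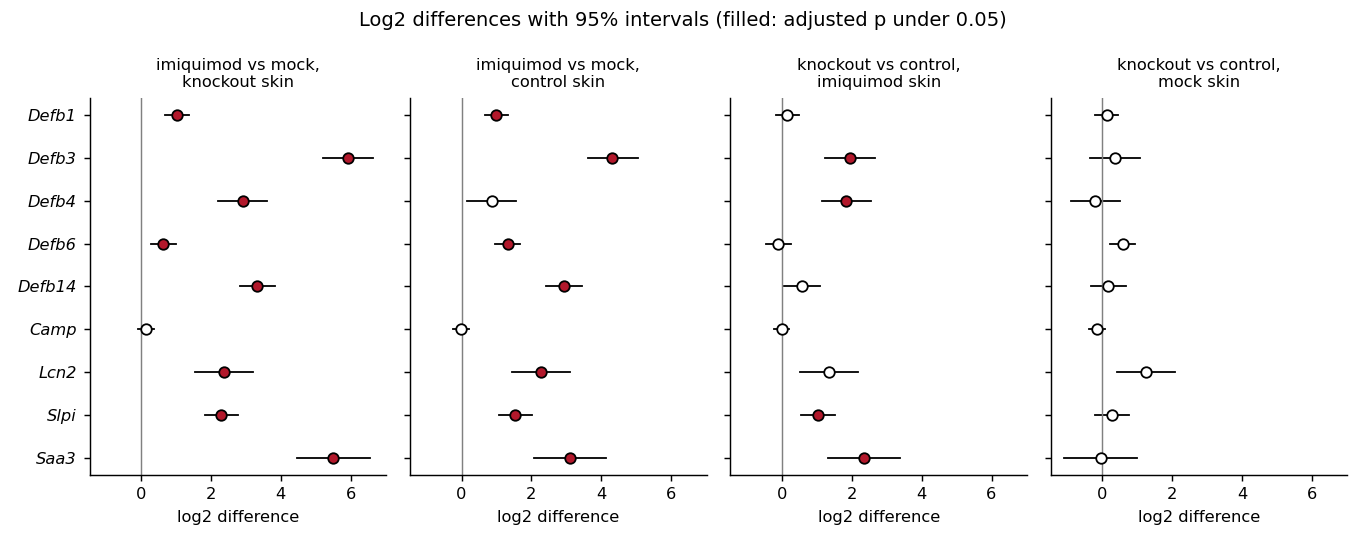
Log2 differences (points) with 95% intervals (lines) of the 9 measured genes in 4 comparisons, filled where the limma adjusted p over all 22180 genes was under 0.05. Defb3, Defb4, Slpi and Saa3 are filled for knockout against control in imiquimod skin, and none is filled in mock skin.

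Whether the response to imiquimod itself differed between genotypes was tested as the difference of the log2 differences, knockout minus control. In limma 0 of the 9 genes passed, while 0.018% of all genes rose in this contrast. At an unadjusted p under 0.05 there were 5 of the 9, against 6.75% of all genes. Estimates were 2.40 for Saa3 (95% interval 0.93 to 3.87, limma adjusted p = 0.514), 2.05 for Defb4 (1.05 to 3.04, limma adjusted p = 0.303), 1.59 for Defb3 (0.58 to 2.60, limma adjusted p = 0.546) and 0.76 for Slpi (0.08 to 1.43, limma adjusted p = 0.714). Defb4 passed without knockout imiquimod replicate 3 (2.39, limma adjusted p = 0.0204), its lowest array in that group. The unequal calls of Defb4 in knockouts and controls are therefore not backed by a passed test of the difference over all arrays.

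Without imiquimod, 0 of the 9 genes passed between genotypes in limma, and 0.00902% of all genes were higher. At an unadjusted p under 0.05 there were 2 of the 9, Lcn2 and Defb6, against 3.19% of all genes. Lcn2 was 2.36-fold higher in mock-treated knockouts (log2 difference 1.24 ± 0.40, SE, n = 5 per group, limma adjusted p = 0.999). All 5 mock-treated knockouts, from 5.96 to 8.33, lay above all 5 mock-treated controls, from 5.27 to 5.92, and 0.189% of all genes were higher without overlap. Without knockout mock replicate 3 the difference was 0.86 (limma adjusted p = 0.999). Defb6 was 1.49-fold higher by estimate (log2 difference 0.58, limma adjusted p = 0.999), with overlapping arrays. Saa3, the gene with the largest estimate between treated groups, had a difference of -0.05 in mock skin (95% interval -1.09 to 0.99).

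Markers of other cell types varied between arrays beside these values. The mean of 23 hair markers was 9.33 in control imiquimod replicate 5, against 5.49 to 6.08 in the other treated controls, and that array was the lowest of its group for 8 of the 8 genes other than Camp. In treated knockouts the hair mean was 9.12 in replicate 1 and 7.49 in replicate 4, against 5.69 to 5.99 in the others. In mock-treated knockouts it was 6.0 in replicate 3, the array with the highest Lcn2, against 8.01 to 10.19. Replicate 5 of the mock-treated controls had a hair mean of 6.03, against 9.31 to 10.26 in the others. A fit without the 4 arrays named here, except knockout imiquimod replicate 4, kept 8 of 9 genes called for imiquimod in knockouts and 7 of 9 in controls, and left 1 of 9, Defb3, called between treated genotypes (log2 difference 1.56, limma adjusted p = 0.0364). With the hair mean as a covariate 5 of 9 were called there, Lcn2 being the added one (limma adjusted p = 0.033). The median log2 difference of the hair markers with imiquimod was -2.03 in knockouts and -2.94 in controls, with none called. In the fit without the 4 arrays, hair means were 8.01 or more in mock skin and 7.49 or less in treated skin. That fit therefore cannot tell hair from imiquimod, and the part of hair in these results was not tested.

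The mean of 16 neutrophil markers was 5.41 to 6.68 in treated knockouts and 4.92 to 5.3 in treated controls, against 4.66 to 4.91 in mock-treated knockouts and 4.6 to 4.8 in mock-treated controls. With imiquimod 7 of the 16 rose in knockouts and 2 in controls, against 11.1% and 6.47% of all genes. The chemokine receptor gene Cxcr2 was 5.57-fold higher in knockouts and 4.09-fold higher in controls in limma (adjusted p = 4.12e-08 and 8.78e-07). Between treated genotypes 1 of the 16 was called, the C-type lectin gene Clec4d, which averaged 5.64 in knockouts and 3.81 in controls (3.56-fold higher, limma adjusted p = 0.0465), and 21 of its 31 alternatives lost that call. Over all genes 0.374% were higher and 0.171% lower in that comparison. In treated knockouts and treated controls, Retnlg averaged 5.25 ± 2.01 and 3.51 ± 0.17, and Csf3r 6.32 ± 0.93 and 5.1 ± 0.18 (SD, n = 5 each). Mcemp1 averaged 6.3 ± 0.87 and 5.15 ± 0.19, and Mmp8 5.9 ± 1.09 and 4.86 ± 0.53. Single treated knockout arrays reached 8.66 for Retnlg and 7.97 for Clec4d. By estimate Il1r2 and Mpo were lower in treated knockouts, at 7.81 ± 0.59 against 8.15 ± 0.2 and at 4.4 against 4.53. Of these genes only Clec4d was called. The granule genes Ngp, Mpo and Elane, which mark immature neutrophils, kept group means of 3.76 to 3.96, 4.4 to 4.53 and 4.56 to 4.69, and Ly6g, the surface marker of mouse neutrophils, 3.09 to 3.56. Treated knockout replicate 4 had the highest neutrophil mean, 6.68, against 5.41 to 5.65 in the other treated knockouts. It was the highest of its group for 5 of the 8 genes other than Camp. Without it, Defb3 and Defb4 were called between treated genotypes and Slpi and Saa3 were not (limma adjusted p = 0.153 and 0.106). The part of neutrophils in these results was not tested. Means of 10 hepatocyte markers, listed because the liver makes serum amyloid A proteins, stayed between 4.28 and 5.15 on all arrays. None of the 10 was called in any comparison. Among them Cyp2e1 ran from 4.35 to 8.76 in treated knockouts and from 7.56 to 10.18 in treated controls (log2 difference -2.22, limma adjusted p = 0.258). Markers read in skin do not measure what the liver makes, and its part in these results was not tested.

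Skeletal muscle, fat and sebaceous gland markers were lower in treated knockouts than in treated controls by their list means. The mean of 10 muscle markers was 7.94 to 8.78 in treated knockouts, against 8.77 to 9.76 in treated controls, and 1 of the 10 was called lower, the myosin gene Myh4 (log2 difference -1.15, limma adjusted p = 0.0275), a call that 7 of its 32 alternatives lost. The mean of 9 fat markers was 6.73 to 7.49 in treated knockouts, against 7.41 to 7.94 in treated controls, with none called between them. With imiquimod 6 of these 9 fell in knockouts and 1 in controls. Of the 10 muscle markers 7 fell and 1 rose in knockouts, and 0 fell and 1 rose in controls. The mean of 9 sebaceous gland markers was 7.79 to 8.89 in treated knockouts, against 8.9 to 9.24 in treated controls, with none called between them. With imiquimod 3 of those 9 rose and 2 fell in knockouts, and 5 rose and 1 fell in controls. Macrophage markers, 9 in all, had means of 7.45 to 8.01 in treated knockouts and 7.55 to 8.3 in treated controls, with none called between them, while imiquimod raised 2 and lowered 1 in knockouts and raised 3 and lowered 1 in controls. Over all genes 11.1% rose and 9.71% fell with imiquimod in knockouts, and 6.47% rose and 4.37% fell in controls. Between treated genotypes 0.171% of all genes were lower in knockouts and 0.374% were higher. The part of muscle, fat, sebaceous glands and macrophages in these results, among them those of Saa3, was not tested.

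**Figure D4:**
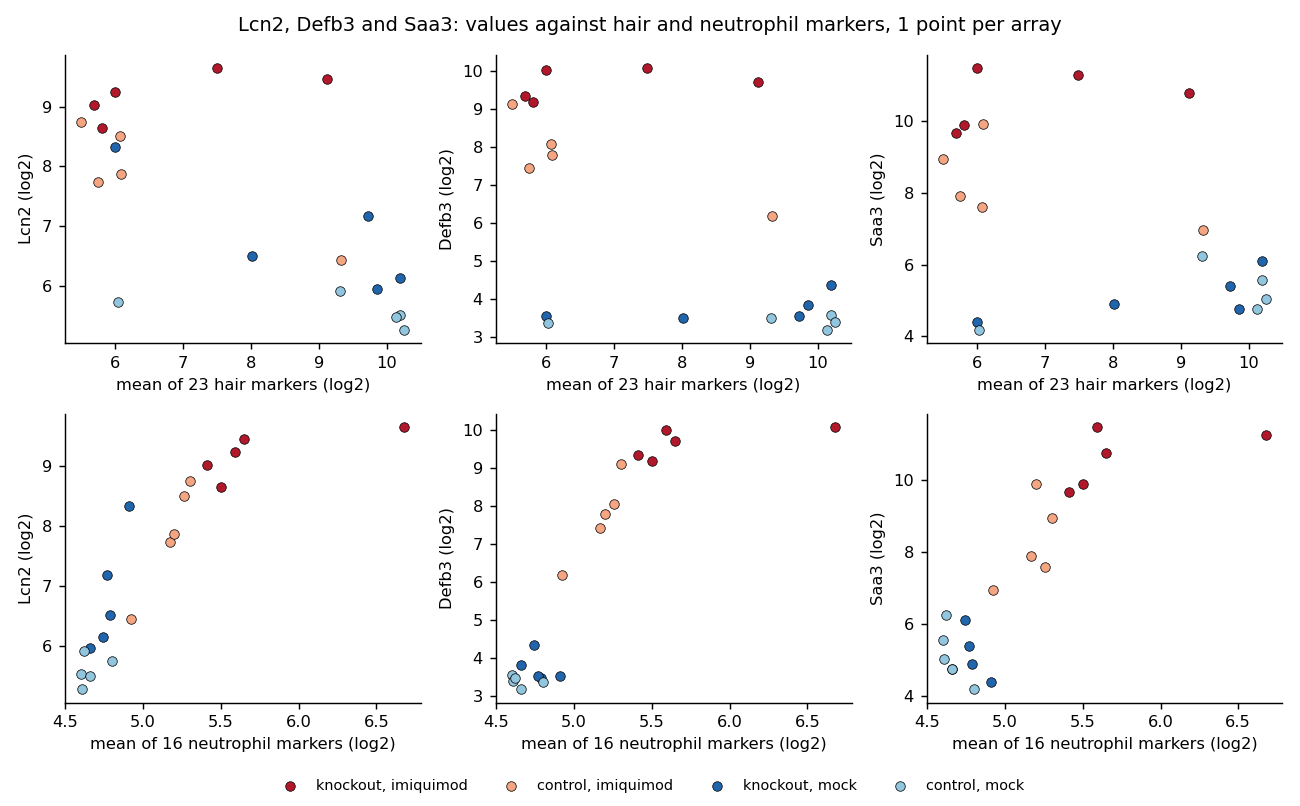
Lcn2, Defb3 and Saa3 values (vertical, log2) against the mean of 23 hair markers (upper row) and of 16 neutrophil markers (lower row) of the same array (horizontal, log2), 1 point per array and 5 per group. Treated control replicate 5, with a hair mean of 9.33, is the lowest treated control for all of the 3 genes, and treated knockout replicate 4, with a neutrophil mean of 6.68, has the highest Lcn2 and Defb3.

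Counts in related gene lists are read against all genes, of which 11.1% rose and 9.71% fell with imiquimod in knockouts and 6.47% rose and 4.37% fell in controls. Between treated genotypes 0.374% of all genes were higher in knockouts and 0.171% were lower. Of 19 measured cytokines known to induce these proteins in keratinocytes or to accompany them, 14 rose in knockouts and 9 in controls, and 6 were higher in knockouts than in controls with imiquimod. Il1f6, which encodes IL-36 alpha, rose 19.3-fold in knockouts and 27.1-fold in controls (limma adjusted p = 3.04e-09 and 1.16e-09). Il19, a cytokine of the IL-20 group, averaged 6.77 ± 0.66 in treated knockouts and 4.58 ± 0.19 in treated controls (SD, n = 5 each), 4.55-fold higher (limma adjusted p = 2.29e-05). Among 34 upstream receptors and transcription factors 17 rose and 2 fell in knockouts and 17 rose in controls. Nfkbiz, an NF-kB cofactor needed for Lcn2 and defensin induction by IL-17, rose 2.29-fold in knockouts and 2.33-fold in controls (limma adjusted p = 1.19e-06 and 1.45e-06). Between treated genotypes 1 of the 34 was higher in knockouts, Osmr, the oncostatin M receptor gene (limma adjusted p = 0.0453), and 18 of its 32 alternatives lost that call.

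Among 23 other acute-phase genes 6 rose in knockouts, while 2 rose and 1 fell in controls. Serpina3n, a serine protease inhibitor, rose 4.14-fold in knockouts and 3.13-fold in controls (limma adjusted p = 1.08e-06 and 2.64e-05). Between treated genotypes 1 of the 23 was higher in knockouts, Saa2, at 4.33 ± 0.37 in knockouts and 3.18 ± 0.30 in controls (SD, n = 5 each, limma adjusted p = 0.00608), and its call held in all 31 alternatives that keep the gene. The control value may lie near background, and Saa2 is left out with the dimmest genes. Over all genes 0.374% were higher in treated knockouts than in treated controls. Of 27 other skin antimicrobial genes 10 rose and 5 fell in knockouts, and 8 rose and 1 fell in controls. Lpo, encoding lactoperoxidase, rose 5.49-fold in knockouts and 3.79-fold in controls (limma adjusted p = 2.25e-09 and 1.11e-07). Between treated genotypes 3 of the 27 were higher in knockouts, S100a8, S100a9 and Wfdc12 (limma adjusted p = 0.0452, 0.0275 and 0.0437), and each lost its call in some alternatives. Of 14 proteases linked to the set, 8 rose in knockouts and 6 in controls. Klk6, a serine protease of the kallikrein family, rose 11.3-fold and 11.1-fold (limma adjusted p = 9.93e-10 and 1.79e-09), whereas the Slpi target Elane was not among those called. Of 13 receptors for the set's proteins, 2 rose and 2 fell in knockouts and 1 rose and 1 fell in controls, shares near those of all genes.

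The genes nearest to each member in pattern were found by the root mean square difference of values centred on each gene's mean over the 20 arrays. Nearest to Defb3 were Sprr2e, a small proline-rich protein of the cornified envelope, at 0.31, and S100a8 and S100a9, the subunits of calprotectin, at 0.33 and 0.42, where the SD of Defb3 over the arrays was 2.71. S100a9 and S100a8 were also the nearest to Saa3, at 0.67 and 0.71 (SD 2.44). Slpi, Defb4 and Lcn2 shared Cyp7b1, an oxysterol hydroxylase, among their 3 nearest, at 0.28, 0.40 and 0.64 (SD 1.09, 1.26 and 1.47). Nearer to Lcn2 were Gsta4, a glutathione transferase, at 0.58 and Slpi at 0.60. Defb14 lay nearest to the sodium-glucose transporter gene Slc5a1 at 0.29 (SD 1.63). Among pairs of members other than Camp, which hardly varied, the smallest differences were 0.38 for Defb1 with Defb6, 0.56 for Defb4 with Slpi and 0.60 for Lcn2 with Slpi, and Defb3 with Saa3 differed by 0.77 although both varied over a much wider range.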

How the data were processed

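The authors deposited 1 table of values for 41345 probe sets on 20 Affymetrix arrays, taken here as log2: the values have 2 decimals and near-equal medians, and neither labels nor file name the log base, summarisation, normalization or software. Per the labels' protocols, 200 ng of total RNA were labelled with WT PLUS. Probe sets were named through the platform table: 23521 had 1 symbol, 1814 several and 16010 no entry. The probe set with the highest mean stood for a gene, which left 22180 genes with no filter on dim ones.

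Group means were fitted over all 20 arrays in limma 3.58.1 (R 4.3.3; lmFit and eBayes, 16 residual degrees of freedom), with two-sided tests and Benjamini-Hochberg adjustment over the 22180 genes at 0.05. The 5 contrasts set imiquimod against mock per genotype, knockouts against controls per treatment, and both responses against each other. Folds assume base 2. The fit was run on simulated data with independent noise and 1 spread per gene in all groups, so unequal spreads were not covered. Between treated genotypes it called 32 of 67 changes of 0.5, 60 of 67 of 1 and 66 of 66 of 2 log2 units. It also called 16 unchanged genes.

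The members and lists were chosen with earlier results of these data known. Named genes were the members, Zfp36, up to 3 called genes of each list per direction and contrast, the 3 nearest in pattern, and, picked after their values were seen, some markers of cell types. The labels do not say how arrays were batched. Alternatives were the replicate number as a block, a trended or robust prior, array weights, quantile normalization, median centring, the mean of probe sets, every probe set, the 30% dimmest genes left out, only the contrast's groups, hair markers as a covariate, arrays far in hair markers left out, and each array left out.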

Additional observations from a re-analysis of the deposited data

Results flagged for a closer look

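In control imiquimod replicate 5, Defb6 read 11.57, against 11.87 to 11.98 in the other treated controls, a gap that is large for the group's own range. It was the 1 group of 36 tested with such a gap, and chance flags about 1 in 20 groups. The array also had the highest hair marker mean of its group, 9.33.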

How the results depend on the processing

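For the 9 measured members, 1369 recomputed values kept their direction and their side of the threshold, 34 lost a call, 4 gained one and 28 changed sign, all of them of differences near 0 that were called in neither fit. Some fits could not move a difference: each member had 1 probe set, and arrays outside a comparison enter only the shared spread. Comparisons without a call had none to lose. Between treated genotypes Slpi lost its call in 19 of 32 alternatives and Saa3 in 10 of 32. With each array left out in turn, the difference ran from -0.07 to 0.05 for Camp with imiquimod in controls, -0.07 to 0.06 for Camp and -0.18 to 0.01 for Defb6 between treated genotypes, -0.30 to 0.23 for Saa3 and -0.04 to 0.21 for Defb1 between mock groups, and -0.06 to 0.19 for Defb1 and -0.25 to 0.48 for Lcn2 in the difference of responses. Other sign changes of members were 0.03 for Camp in controls with median centring, 0.02 for Camp between treated genotypes with array weights and without the arrays farthest in hair markers, and 0.12 for Saa3 between mock groups with array weights. For Saa2, the imiquimod effect in controls was -0.13 with the hair covariate and -0.10 to 0.16 with each array left out, and the mock difference was 0.08 with array weights, 0.19 without the arrays farthest in hair markers and -0.12 to 0.13 with each array left out. For Zfp36, the imiquimod effect in controls was -0.25 with the hair covariate, and the difference of responses ran from -0.06 to 0.85 with each array left out. The count of members called for imiquimod stayed at 8 of 9 in knockouts and at 7 or 8 of 9 in controls, and no member was called between mock groups. The count between treated genotypes, 4 of 9, was 2 with the replicate block, which lost Saa3 and Slpi (limma adjusted p = 0.0563 for both), and 2 with a robust prior, which lost the same genes, 0 with only the treated groups in the fit, 1 without the arrays farthest in hair markers, and 1 to 4 with each array left out. For the difference of responses, leaving out each array gave 0 to 1 members called. Same-numbered arrays of different groups deviated together (r over 0.1) in 14 of 30 pairs, and r ran from -0.709 to 0.516. The numbers were therefore not taken to pair the mice, and the replicate block changed no other member count. Over all genes the calls between treated genotypes, 121, ranged from 17 with only those groups to 337 with the hair covariate; with the block they were 78, with array weights 242, and with 1 array left out 45 to 174. Calls for imiquimod in controls, 2404, were 3697 with array weights. Calls between mock groups, 2, ranged from 0 to 5, and those for the difference of responses, 4, from 3 to 12. Camp has no value without the dimmest genes. The causes were not tested. Signal over background was not used here, so folds from low values, as for Defb3, Defb14 and Saa2 in mock skin, are uncertain in size.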
